A study of Homo sapiens with 20 samples.

Results

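Members of the Eph and ephrin family were followed, namely the receptors EPHA2, EPHA4, EPHB2, EPHB3 and EPHB4 and the ligands EFNA1, EFNA5 and EFNB2. They were taken by gene symbol and are 8 of the 58870 genes in the expression table. The regions belonging to them are the 65 FRA1 Cut&Run peaks, of 54563 in all, that overlap one of these genes or lie within 50 kb of it. The study silenced FRA1, the AP-1 transcription factor encoded by FOSL1, in 2 established human melanoma cell lines, A375 and 1205Lu, and mapped where FRA1 sits on their chromatin. RNA was sequenced from A375 and 1205Lu cells that received non-targeting siRNAs (si-NT) or siRNAs against FRA1 (si-FRA1), with 3 samples in each of the 4 groups. Cut&Run, in which an antibody to a chromatin protein guides a nuclease that frees the flanking DNA for sequencing, was done on the same lines, with no siRNA named in the labels, with 3 FRA1 antibody libraries and 1 IgG control library per line. Nothing in the labels says that the replicates came from separate cultures, so p-values here measure the spread between these samples, which may be technical.

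Eph receptors form the largest family of receptor tyrosine kinases, and their ligands, the ephrins, are held on the surface of neighbouring cells. Ephrin-A ligands are attached by a lipid anchor and mainly bind EphA receptors, whereas ephrin-B ligands cross the membrane and mainly bind EphB receptors. Contact signals into both cells, steers repulsion or adhesion through the actin cytoskeleton, and guides axons, vessel borders and the migration of neural crest cells, from which melanocytes arise.

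Totals assigned to genes were 20573412 to 32518903 counts per RNA sample. FOSL1 itself stood at 412, 423 and 407 CPM (read counts scaled to a common library size by the TMM method) in A375 si-NT and at 25.6, 25.6 and 25.9 in A375 si-FRA1. The 1205Lu samples had 492, 483 and 477 with si-NT and 69.2, 70.8 and 65.0 with si-FRA1, so every si-FRA1 sample was below every si-NT sample of its line. FOSL1 fell by 4.01 on the log2 scale in A375 (SE 0.0300, adjusted p = 6.0e-30, Benjamini-Hochberg over all genes, quasi-likelihood test of edgeR) and by 2.84 in 1205Lu (SE 0.0291, adjusted p = 1.0e-22). The lines differed in melanocyte lineage markers: mean SOX10 was 43.9 CPM in A375 si-NT and 912 in 1205Lu si-NT, mean MITF was 52.1 and 3.55, and mean S100B was 0.991 and 427, while PMEL, MLANA, TYR, DCT and TYRP1 had means under 1 CPM in both si-NT groups. AXL, a receptor of dedifferentiated melanoma, was at 714 and 498 CPM, EGFR at 215 and 69.8, SOX9 at 113 and 649 and NGFR at 7.76 and 3.11. Of 9 markers of other cell types, 7 (PTPRC, CD3E, KRT5, KRT14, PECAM1, CDH5 and DCN) had means under 1 CPM in all 4 groups, while CD68 was at 77.9 CPM in A375 si-NT and 17.3 in 1205Lu si-NT, and COL1A1 at 11.1 and 1.66. With si-FRA1, mean COL1A1 was 21.7 CPM in A375 and 2.20 in 1205Lu, CD68 was 57.9 and 7.52, NGFR 5.67 and 13.6, SOX9 56.5 and 564, AXL 191 and 268, EGFR 139 and 77.5, SOX10 32.5 and 783, and MITF 63.9 and 3.26. The part of these markers in the values below was not tested.

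Selected stretches of DNA from peaks that differed in FRA1 signal between the lines are printed first, because FRA1 binds as part of AP-1 and the classical AP-1 sequence is TGACTCA or its reverse complement TGAGTCA. Each is read from the plus strand of GRCh38, and capitals mark an AP-1 7-mer. The EPHA2 stretch at chr1:16145715-16145775 lies in the peak with the highest A375 count of the 65, inside the gene. The EPHA2 stretch at chr1:16173309-16173369 lies upstream of it. The EPHB2 stretch at chr1:22832173-22832273 is intronic and holds 2 sites whose first bases are 40 bp apart. The EPHB3 stretch at chr3:184561298-184561358 is the centre of a promoter peak that has no AP-1 7-mer at all. The EFNA1 stretch at chr1:155129650-155129710 lies just inside the gene, with its site 8 bp from the peak's centre. The EFNA5 stretch at chr5:107474850-107474910 is intronic, and the EFNB2 stretch at chr13:106472301-106472361 lies downstream of the gene in the only peak near EFNB2.
EPHA2 internal: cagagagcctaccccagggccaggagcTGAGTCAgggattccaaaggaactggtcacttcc
EPHA2 upstream: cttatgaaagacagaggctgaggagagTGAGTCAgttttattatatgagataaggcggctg
EPHB2 intron: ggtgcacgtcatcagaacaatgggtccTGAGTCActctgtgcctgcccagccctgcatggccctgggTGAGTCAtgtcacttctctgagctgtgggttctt
EPHB3 promoter: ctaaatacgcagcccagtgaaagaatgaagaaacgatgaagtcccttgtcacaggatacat
EFNA1 start: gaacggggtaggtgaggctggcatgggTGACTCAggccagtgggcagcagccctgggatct
EFNA5 intron: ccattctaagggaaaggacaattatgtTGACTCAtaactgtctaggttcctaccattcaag
EFNB2 downstream: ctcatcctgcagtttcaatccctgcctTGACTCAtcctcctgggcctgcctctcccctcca

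With si-NT, the lines carried different sets of these genes. All 8 differed between 1205Lu and A375 by the quasi-likelihood test of edgeR, adjusted by Benjamini-Hochberg over 19452 genes, with 6 higher and 2 lower in 1205Lu. The background is wide, since 75.9% of all genes tested were called in this comparison, 36.1% higher and 39.8% lower in 1205Lu. Of the 8 genes, 6 also passed a log2 difference of 1, against 40.6% of all genes, and all 8 had groups that did not overlap, against 77.9%. The median log2 difference was 1.07 over the 8 genes and -0.03 over all genes tested.

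Levels between genes are compared as CPM per kilobase of exon. In A375 si-NT, EPHA2 led at 69.3 ± 1.89 (SD, n = 3), followed by EFNA1 at 8.38 ± 0.361, EFNA5 at 5.39 ± 0.201, EPHB4 at 5.03 ± 0.194 and EFNB2 at 3.96 ± 0.236. Low levels closed the order, with EPHA4 at 1.17 ± 0.110, EPHB2 at 0.978 ± 0.105 and EPHB3 at 0.272 ± 0.0554. The sample ranges of neighbours in this order overlapped only for EPHA4 and EPHB2. Among the 8, A375 cells held mostly EPHA2 RNA per length, and its ligand gene EFNA1 was the highest of the 3 ligands. In 1205Lu si-NT the order was EPHB3 at 28.9 ± 0.287, EPHA2 at 20.6 ± 0.866, EPHB4 at 11.8 ± 0.440, EPHA4 at 10.4 ± 0.662, EFNA5 at 9.47 ± 0.191, EFNB2 at 7.41 ± 0.0573, EPHB2 at 3.70 ± 0.161 and EFNA1 at 1.82 ± 0.387, with no overlap between neighbours. After FRA1 silencing the A375 order was the same as with si-NT, and in 1205Lu EFNB2 rose above EFNA5 and EPHA4 in mean level per length, with sample ranges that overlapped those of EFNA5, whose ranges in turn overlapped those of EPHA4.

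**Figure D1:**
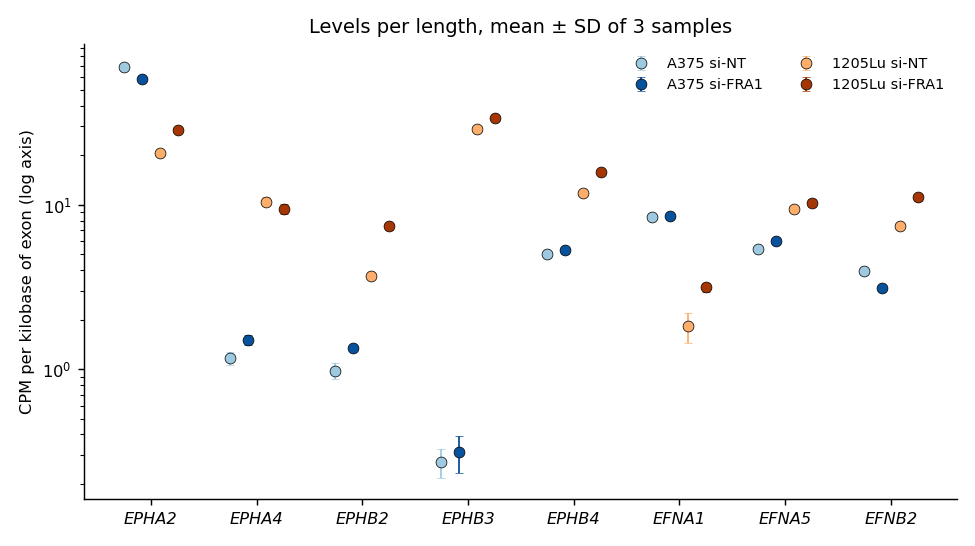
Levels of the 8 genes in CPM per kilobase of exon on a log axis; points are means of 3 samples in each of the 4 groups and bars are SDs. EPHA2 was the highest of the 8 in A375 (69.3 with si-NT) and EPHB3 in 1205Lu (28.9 with si-NT), whereas EPHB3 was the lowest in A375 (0.272 with si-NT).

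On FRA1 silencing, 5 of the 8 genes changed in A375, 3 up and 2 down, and 7 of 8 in 1205Lu, 6 up and 1 down (edgeR's quasi-likelihood test, adjusted p under 0.05). Among all genes tested, 50.8% of 16899 were called in A375, 25.7% up and 25.1% down, and 40.5% of 17136 in 1205Lu, 20.6% up and 19.9% down. No member passed a log2 change of 1 in either line, against 5.56% of all genes in A375 and 3.13% in 1205Lu. The samples of the 2 groups did not overlap for 5 members in A375, against 56.8% of all genes, and for 7 in 1205Lu, against 49.3%. The median log2 change of the 8 was 0.11 in A375 and 0.43 in 1205Lu, beside medians of -0.003 and -0.005 over all genes tested.

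The response differed between the lines for 6 of the 8 genes by the interaction term of a fit over all 12 samples, 5 with a more positive response in 1205Lu and 1 with a more negative one. Over 19452 genes tested this term was called for 31.9%, with 16.6% more positive and 15.3% more negative in 1205Lu. None of the 8 differed by more than 1 on the log2 scale, a size reached by 5.09% of all genes. EPHB2 rose in both lines, EPHA2 and EFNB2 fell in A375 and rose in 1205Lu, and EPHA4 rose in A375 and fell in 1205Lu. Of the 15056 genes tested in both lines, 10.4% rose in both, 4.51% fell in A375 and rose in 1205Lu, and 4.35% rose in A375 and fell in 1205Lu.

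**Figure D2:**
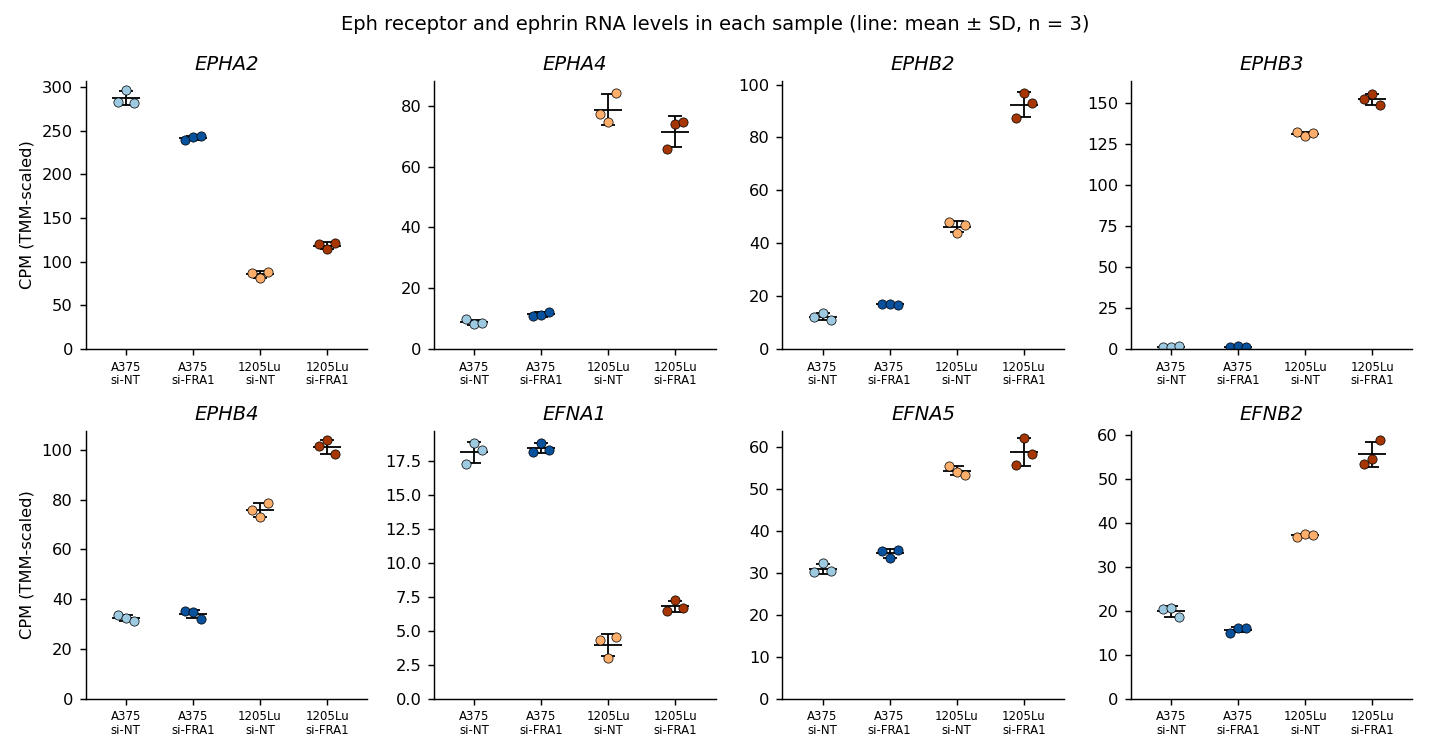
CPM of each of the 8 genes in the 12 RNA samples; points are samples, the line and bars are the mean and SD of 3 samples, and each axis starts at 0. EPHB2 rose in both lines, whereas EPHA2 and EFNB2 were lower with si-FRA1 in A375 (means 242 and 15.7 CPM) and higher in 1205Lu (118 and 55.5 CPM).

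EPHA2 is an EphA receptor widely studied in carcinoma and melanoma cells, and it spans chr1:16124337-16156069 on the minus strand. In A375 it stood at 283, 296 and 282 CPM with si-NT and at 239, 243 and 243 with si-FRA1. The groups did not overlap, and EPHA2 fell by 0.25 on the log2 scale (SE 0.0244, adjusted p = 5.0e-09, edgeR). In 1205Lu it stood at 86.6, 81.2 and 88.0 CPM with si-NT and at 119.6, 114 and 121 with si-FRA1. It rose there by 0.45 (SE 0.0379, adjusted p = 5.8e-09), again without overlap. The difference between the responses was 0.72 (SE 0.0445, adjusted p = 2.2e-12), and the si-NT level was 3.36-fold lower in 1205Lu than in A375. The EPHA2 levels of the lines lay closer together after silencing, moving from means of 287 and 85.3 CPM to 242 and 118 CPM. The overlapping antisense gene EPHA2-AS1 had at most 20 counts in any sample.

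EPHA4, a receptor that binds ephrins of both classes and is known from axon repulsion, spans chr2:221418027-221574202 on the minus strand. In A375 its level was low, at 9.76, 8.18 and 8.52 CPM with si-NT and at 10.8, 11.04 and 12.3 with si-FRA1. It rose by 0.36 on the log2 scale (SE 0.107, adjusted p = 6.5e-03, edgeR) with groups that did not overlap. In 1205Lu it was higher, at 77.4, 74.7 and 84.4 CPM with si-NT and 65.8, 74.1 and 74.8 with si-FRA1. The highest si-FRA1 sample lay just above the lowest si-NT sample, and EPHA4 fell by 0.16 (SE 0.0496, adjusted p = 1.6e-02). That call was lost in a fit over all 12 samples (-0.14, adjusted p = 0.061), without 1205Lu si-NT replicate 3 (-0.10, adjusted p = 0.14) and without 1205Lu si-FRA1 replicate 1 (-0.10, adjusted p = 0.15). The difference between the lines' responses was -0.51 (SE 0.108, adjusted p = 6.0e-04), and the si-NT level was 8.96-fold higher in 1205Lu. The opposite-strand gene AC079834.2, which overlaps EPHA4, had a mean of 1.07 CPM or less in every group.

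EPHB2 and EPHB3 are the B-class receptors known for sorting cells along the intestinal crypt. EPHB2 spans chr1:22710839-22921500 on the plus strand. In A375 it stood at 11.97, 13.7 and 11.1 CPM with si-NT and at 17.2, 16.9 and 16.7 with si-FRA1, and in 1205Lu at 47.9, 43.99 and 46.9 with si-NT and at 87.4, 96.6 and 93.0 with si-FRA1. In both lines every si-FRA1 sample was above every si-NT sample. EPHB2 rose 1.38-fold in A375 (log2 0.46, SE 0.0895, adjusted p = 1.3e-04, edgeR) and 1.97-fold in 1205Lu (log2 0.98, SE 0.0452, adjusted p = 7.4e-13), the largest rise of the 8 in either line. The rise was larger in 1205Lu by 0.53 on the log2 scale (SE 0.0924, adjusted p = 5.7e-05), on top of a si-NT level that was 3.78-fold higher than in A375.

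EPHB3 spans chr3:184561785-184582408 on the plus strand, and its level separated the lines more than that of any other of the 8. In A375 it had 27, 25 and 36 counts with si-NT and 41, 44 and 29 with si-FRA1, which is 0.988 to 1.83 CPM over the 6 samples. In 1205Lu it stood at 132, 129 and 131 CPM with si-NT and at 152, 155 and 149 with si-FRA1. With si-NT it was 106-fold higher in 1205Lu (log2 6.73, SE 0.0794, adjusted p = 7.9e-29, edgeR). It rose 1.15-fold on silencing in 1205Lu (log2 0.20, SE 0.0292, adjusted p = 1.2e-05). In A375 the change was 0.19 with a 95% interval from -0.43 to 0.81, too wide at these counts to show a change of the 1205Lu size, and the difference between the responses was 0.03 (adjusted p = 0.94).

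EPHB4 is the receptor that pairs with ephrin-B2 at the border of veins and arteries, and it spans chr7:100802565-100827523 on the minus strand. Its A375 levels were 33.6, 32.4 and 31.1 CPM with si-NT and 35.1, 34.8 and 32.2 with si-FRA1, overlapping groups with a log2 difference of 0.07 (SE 0.0567, adjusted p = 0.34, edgeR). Its 1205Lu levels were 75.8, 73.0 and 78.7 CPM with si-NT and 101, 104 and 98.4 with si-FRA1. It rose 1.32-fold in 1205Lu (log2 0.40, SE 0.0383, adjusted p = 4.0e-08), and the responses differed by 0.34 (SE 0.0660, adjusted p = 1.9e-04). SLC12A9 overlaps EPHB4 on the opposite strand and had 222 to 703 counts per sample, with means of 22.7 and 20.9 CPM in 1205Lu si-NT and si-FRA1. Whether counting used the strand is not given in the sources used here, and the part of SLC12A9 reads in the EPHB4 values was not tested.

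EFNA1 is a lipid-anchored ligand of EPHA2, and it spans chr1:155127876-155134899 on the plus strand. Its A375 samples gave 17.3, 18.8 and 18.3 CPM under si-NT and 18.1, 18.8 and 18.3 under si-FRA1, with a log2 difference of 0.02 and a 95% interval from -0.13 to 0.16. In 1205Lu it was low, at 4.32, 2.98 and 4.52 CPM with si-NT, and it stood at 6.47, 7.27 and 6.64 with si-FRA1. It rose 1.70-fold there (log2 0.76, SE 0.165, adjusted p = 8.4e-04, edgeR), and the responses differed by 0.75 (SE 0.165, adjusted p = 7.9e-04). Its 1205Lu samples held 67 to 163 counts, so its error was the largest of the 8 in that line. With EPHA2, it was one of the 2 genes that were lower in 1205Lu si-NT, by 4.57-fold.

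EFNA5, a lipid-anchored ligand known from retinal axon mapping, spans chr5:107376894-107670937 on the minus strand. In A375 it stood at 30.1, 32.2 and 30.4 CPM with si-NT and at 35.1, 33.5 and 35.4 with si-FRA1. The groups did not overlap and it rose by 0.16 on the log2 scale (SE 0.0556, adjusted p = 1.9e-02, edgeR), but the call was lost with DESeq2 (0.16, adjusted p = 0.052) and without any one of 4 of the 6 samples: si-NT replicate 1 (0.14, adjusted p = 0.086), si-NT replicate 3 (0.15, adjusted p = 0.058), si-FRA1 replicate 1 (0.15, adjusted p = 0.064) or si-FRA1 replicate 3 (0.15, adjusted p = 0.055). In 1205Lu it stood at 55.5, 54.1 and 53.4 CPM with si-NT and at 55.8, 62.3 and 58.4 with si-FRA1, a difference of 0.10 that missed the threshold (SE 0.0462, adjusted p = 0.11) and passed it only without si-FRA1 replicate 1 (0.14, adjusted p = 0.042). The responses of the lines differed by -0.05, with a 95% interval from -0.19 to 0.09.

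EFNB2 is the transmembrane ligand of EPHB4 and a marker of arterial endothelium, and it spans chr13:106489745-106535662 on the minus strand. In A375 it stood at 20.3, 20.7 and 18.5 CPM with si-NT and at 14.98, 16.1 and 15.96 with si-FRA1. It fell by 0.34 on the log2 scale (SE 0.0780, adjusted p = 6.8e-04, edgeR). In 1205Lu it stood at 36.8, 37.4 and 37.1 CPM with si-NT and at 53.4, 54.5 and 58.7 with si-FRA1. It rose 1.48-fold there (log2 0.56, SE 0.0487, adjusted p = 9.1e-09), with no overlap in either line. The difference between the responses, 0.92 (SE 0.0861, adjusted p = 3.9e-09), was the widest of the 8.

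**Figure D3:**
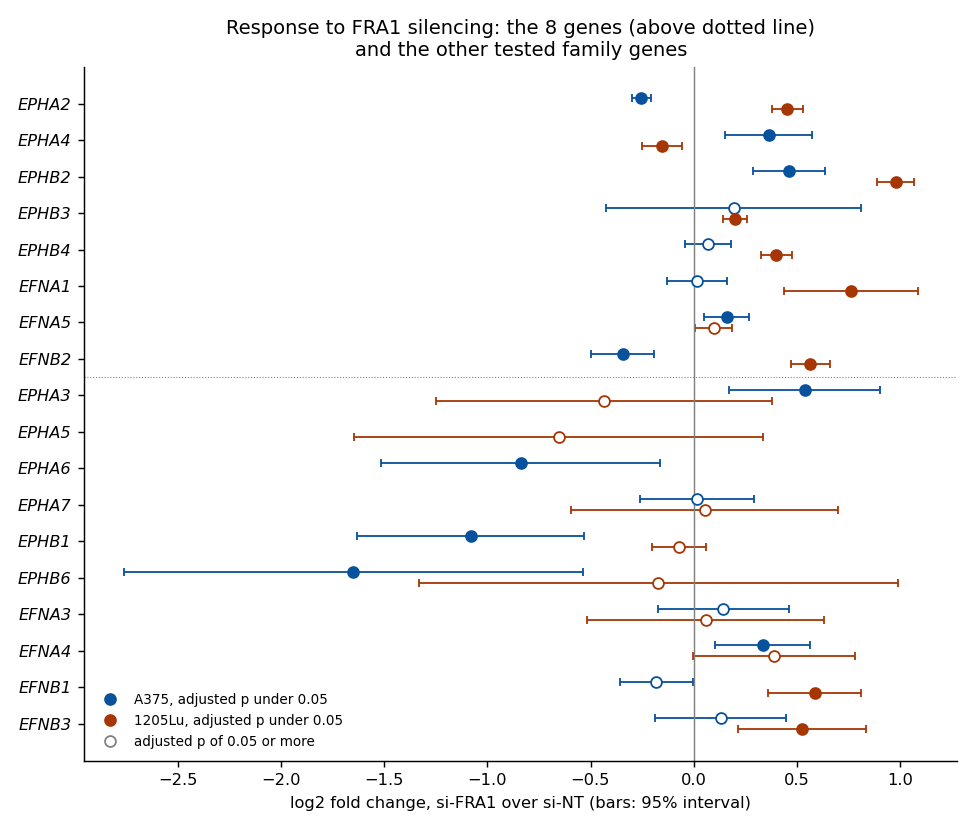
Log2 fold change of si-FRA1 over si-NT for the 8 genes and for the other family genes tested, in A375 and 1205Lu; bars are 95% intervals, filled points passed an adjusted p of 0.05 and open points did not. EPHA2 and EFNB2 lie left of 0 in A375 and right of 0 in 1205Lu, and EPHB2 lies right of 0 in both lines.

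The other 14 family genes were mostly at low counts. In A375, 9 were tested and 5 changed, 2 up and 3 down: EPHA3 rose by 0.54 and EFNA4 by 0.33, whereas EPHA6 fell by 0.84, EPHB1 by 1.08 and EPHB6 by 1.65 on the log2 scale. EPHB1, another B-class receptor, had 45 to 66 counts per sample with si-NT and 27 to 31 with si-FRA1 in A375, and EPHB6 had 11 to 18 and 3 to 6. In 1205Lu, 9 were tested and 2 rose, EFNB1 by 0.59 (adjusted p = 3.3e-04, edgeR) and EFNB3 by 0.52 (adjusted p = 1.1e-02). The shares called over all genes tested were 50.8% in A375 and 40.5% in 1205Lu. With each sample left out in turn, 2 to 4 of the other family genes were called in A375 and 1 to 2 in 1205Lu. EFNB1, the other broadly expressed transmembrane ephrin, stood at 7.51 to 8.40 CPM with si-NT and 11.01 to 12.9 with si-FRA1 in 1205Lu. EPHB1 reached 27.3 to 31.9 CPM in 1205Lu si-NT and was 12.6-fold higher there than in A375 si-NT. EPHA1, EPHA5, EPHA8, EPHA10 and EFNA2 were too low to be tested in A375, and EPHA1, EPHA6, EPHA8, EPHA10 and EFNA2 in 1205Lu.

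Genes that carry or shape the Eph signal inside the cell were taken as a list of 45. In A375, 44 were tested and 27 changed, 16 up and 11 down, and in 1205Lu 43 were tested and 34 changed, 25 up and 9 down, with medians of 0.06 and 0.10 on the log2 scale. Beside these, 50.8% of all genes tested were called in A375 (25.7% up, 25.1% down) and 40.5% in 1205Lu (20.6% up, 19.9% down). ADAM10, the protease that cuts ephrins and ends cell contact, rose by 0.59 in A375 and by 0.54 in 1205Lu on the log2 scale. PIK3R1, a regulatory subunit of phosphatidylinositol 3-kinase, rose 1.54-fold and 1.55-fold. ROCK2, a kinase that drives actomyosin contraction, fell by 0.45 in A375 and by 0.37 in 1205Lu on the log2 scale. In A375 the guanine exchange factor VAV3 rose 1.67-fold and the GTPase CDC42 1.42-fold, whereas the kinase ABL2 fell by 0.76, the focal adhesion adaptor PXN by 0.62 and the Src-family kinase FYN by 0.41. In 1205Lu the exchange factor NGEF rose by 0.69 and the adaptor GRIP1 by 0.38, whereas the kinase PAK1 fell by 0.39, the actin-severing CFL1 by 0.31 and the ephrin-B adaptor SDCBP by 0.25. All adjusted p-values of these named partners were 0.025 or lower (edgeR). For comparison, 20 of 32 tested other receptor tyrosine kinases changed in A375 (9 up, 11 down) and 20 of 33 in 1205Lu (12 up, 8 down).

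The genes whose log2 CPM followed each member most closely over the 12 samples, among 10802 protein-coding genes with a mean of at least 5 CPM, were PPP1CC for EPHA2 (Pearson r = 0.9978), EVI5 for EPHA4 (0.9984), SQSTM1 for EPHB2 (0.9977), SKOR2 for EPHB3 (0.9995), PTCH1 for EPHB4 (0.998), MTSS1L for EFNA1 (0.9941), NCKAP1 for EFNA5 (0.9958) and NCR3LG1 for EFNB2 (0.9958). The 12 points share 2 cell lines and lie in 4 groups, so these values describe the step between the lines as much as the response to silencing.

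FRA1 Cut&Run libraries held 3354095 to 5316527 counts in the consensus peaks in A375 and 583750 to 897407 in 1205Lu, with IgG totals of 383994 and 314569. Enrichment was called where no FRA1 library of a line fell below 10 counts or below 4-fold the sum of 1 and the IgG count, on unscaled counts and with no test, since each line had 1 IgG library. By that rule 39 of the 65 peaks near the 8 genes were enriched in A375, against 57.4% of all peaks, and 3 in 1205Lu, against 7.09%, and these 3 were enriched in A375 too. The lower totals in 1205Lu moved with the lower count there, and their part in it was not tested. With every library scaled to the same total in peaks, 1 of the 65 was enriched in each line. Of the 65, 12 lay within 3 kb of an annotated transcription start of the gene, 4 on an exon, 24 in an intron and 25 in the flanks, and for 10 of them the nearest protein-coding start belonged to another gene.

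Between the lines, 54 of the 65 peaks had enough counts to test, and 35 differed: 21 had more FRA1 signal in A375 and 14 more in 1205Lu (edgeR's quasi-likelihood test on the 6 FRA1 libraries, TMM scaling). Over 45588 peaks tested, 62.6% differed, 34.5% with more in A375 and 28.1% with more in 1205Lu. The direction rests on the scaling: on unscaled counts 50 of the peaks near the 8 genes differed, 47 with more in A375 and 3 with more in 1205Lu. In 1205Lu, Cut&Run replicates 2 and 3 differed by little more than sampling noise, with a chi-square per degree of freedom of 1.05, while replicate 1 stood apart from them at 2.88 and 2.38. The pairs within A375 gave 1.06 to 1.27. Counts are therefore given per library below.

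**Figure D4:**
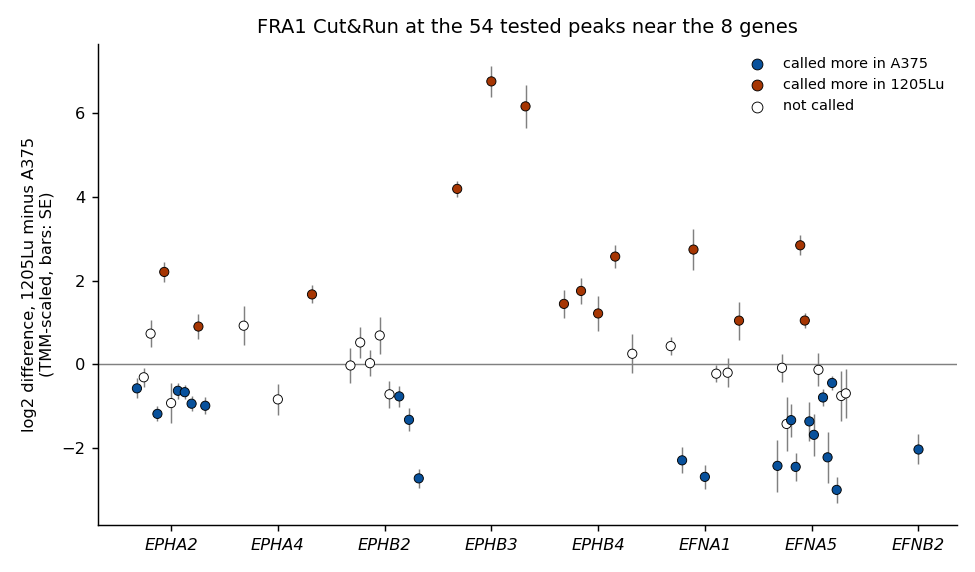
Log2 difference in FRA1 Cut&Run signal, 1205Lu minus A375, at the 54 tested peaks, grouped by gene and ordered within a gene by distance from its start; bars are SEs and colours give the call. The 3 tested EPHB3 peaks lie at 4.19 to 6.76, whereas the EFNB2 peak lies at -2.03.

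EPHA2 had 13 peaks, of which 10 passed the enrichment rule on unscaled counts in A375 and none in 1205Lu. As a share of counts in peaks, mean A375 FRA1 signal at these 10 was 0.50 to 1.86 times IgG (count plus 1). Of the 11 tested, 6 had more signal in A375 and 2 more in 1205Lu. The largest peak, chr1:16143554-16147662, lies within 3 kb of an internal transcription start, with its centre 10.46 kb into the gene. It held 856, 1349 and 1140 counts in A375 against 65 with IgG, and 81, 148 and 100 in 1205Lu against 36. By mean A375 count it ranked 72 of all 54563 peaks, and its signal was lower in 1205Lu by 0.67 on the log2 scale (SE 0.164, adjusted p = 6.6e-04). The peak at the main start, chr1:16154279-16156914, held 193, 288 and 258 unscaled counts in A375 against 31 with IgG, and 23, 27 and 24 in 1205Lu against 23. As a share of counts in peaks, its mean FRA1 signal was 0.69 times IgG (count plus 1) in A375 and 0.44 times in 1205Lu. By share, neither line had an excess over IgG there. A smaller promoter-side peak 3.09 kb upstream, chr1:16158870-16159457, held 28, 45 and 38 counts in A375 and 3, 2 and 4 in 1205Lu. The upstream peak at chr1:16172757-16174195, 17.41 kb before the start, held 373, 545 and 513 counts in A375 against 22 with IgG and 29, 38 and 31 in 1205Lu against 16. A peak 8.44 kb upstream ran the other way, with 45, 65 and 48 counts in A375 and 18, 55 and 41 in 1205Lu, a difference of 2.21 after scaling (SE 0.231, adjusted p = 2.7e-10, edgeR). Its share was 0.68 times IgG (count plus 1) in A375 and 3.03 times in 1205Lu. This peak lies outside the rule for named peaks and was chosen after its values were seen.

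EPHA4 had 4 peaks, of which 3 were tested and 1 was called, with more scaled signal in 1205Lu. The promoter-class peak at chr2:221501279-221502929 lies within 3 kb of an internal start, with its centre 72.1 kb into the gene. It held 59, 89 and 122 counts in A375 against 9 with IgG and 29, 55 and 50 in 1205Lu against 8. After scaling it was higher in 1205Lu by 1.67 (SE 0.215, adjusted p = 2.5e-08), while on unscaled counts it was lower there by 1.01. The intronic peak at chr2:221517319-221518468 held 52, 74 and 59 counts in A375 against 9 and 6, 2 and 8 in 1205Lu against 12. Its scaled difference of -0.84 missed the threshold (SE 0.377, adjusted p = 0.052, edgeR) and passed it in 4 of the 6 fits that left out 1 library, over which it ran from -1.27 to -0.39. The peak near the main start, chr2:221571978-221572736, held 18 to 24 counts in A375 against 5 and 2 to 9 in 1205Lu against 11.

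EPHB2 had 10 peaks, 7 of them in introns and 7 passing the enrichment rule on unscaled counts in A375. The 3 that differed between the lines all had more signal in A375. The intronic peak with the 2 AP-1 sequences printed above, chr1:22831689-22833009, held 517, 710 and 598 counts in A375 against 9 with IgG, and 13, 14 and 16 in 1205Lu against 9. On unscaled counts every A375 library was more than 50 times the IgG count plus 1. As a share of counts in peaks, mean FRA1 signal was 5.48 times IgG (count plus 1) in A375 and 0.61 times in 1205Lu. The signal was lower in 1205Lu by 2.73 on the log2 scale (SE 0.219, adjusted p = 4.2e-13, edgeR). A second intronic peak, chr1:22750173-22750932, held 132, 167 and 136 counts in A375 against 6 and 7, 11 and 9 in 1205Lu against 2. The peak next to the start, chr1:22712468-22713104, held 34, 41 and 28 counts against 2 in A375 and 8, 6 and 9 against 11 in 1205Lu. At the 3 called peaks the stronger FRA1 signal was in A375, the line with the lower EPHB2 RNA and the smaller rise on silencing. Of the 8 tested peaks 5 were not called, among them the peak next to the start (log2 difference 0.52, adjusted p = 0.22, edgeR). A link between FRA1 signal and EPHB2 RNA was not tested.

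EPHB3 had 4 peaks, and all 3 tested had more FRA1 signal in 1205Lu. The promoter peak chr3:184560918-184561738, just before the start, held 90, 154 and 86 counts in 1205Lu against 11 with IgG and 39, 42 and 34 in A375 against 7. It passed the enrichment rule on unscaled counts in both lines and was higher in 1205Lu by 4.19 on the log2 scale (SE 0.190, adjusted p = 1.1e-19, edgeR). Each 1205Lu library held more unscaled counts than any A375 library. As a share of counts in peaks, mean FRA1 signal was 0.44 times IgG (count plus 1) in A375 and 3.81 times in 1205Lu. A pair of downstream peaks at 54.86 and 63.16 kb from the start had 1 to 3 and 0 to 4 counts in A375, beside 22 to 63 and 12 to 27 in 1205Lu, and did not pass the enrichment rule over the 7 and 5 IgG counts in 1205Lu. Both lie outside the rule for named peaks and were chosen after their values were seen. The upstream peak chr3:184524023-184524412 held 18, 23 and 19 counts in A375 against 3 and was not tested.

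EPHB4 had 5 peaks, of which 4 had more scaled signal in 1205Lu and none more in A375. As a share of counts in peaks, mean FRA1 signal at these 4 was 0.35 to 0.66 times IgG (count plus 1) in 1205Lu. It was 0.20 to 1.03 times in A375. By share, 1205Lu had no excess over IgG at any of them. The upstream peak chr7:100867009-100867805, whose nearest protein-coding start is that of TRIP6, held 34, 46 and 23 counts in A375 against 2 with IgG and 20, 13 and 21 in 1205Lu against 12. The downstream peak chr7:100794133-100794716 held 19, 33 and 24 counts in A375 against 3 and 8, 3 and 3 in 1205Lu against 8. No peak lay within 3 kb of an EPHB4 start.

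EFNA1 had 7 peaks, for 4 of which another gene's start was nearer. The peak with its AP-1 site 8 bp from the centre, chr1:155129151-155130226, held 216, 319 and 258 counts in A375 against 12 with IgG and 6, 3 and 10 in 1205Lu against 9, so on unscaled counts its lowest A375 library was 16.6 times the IgG count plus 1, while the 1205Lu libraries were near the IgG count. As a share of counts in peaks, mean FRA1 signal there was 1.82 times IgG (count plus 1) in A375 and 0.28 times in 1205Lu. The signal was lower in 1205Lu by 2.69 on the log2 scale (SE 0.282, adjusted p = 2.8e-10). The peak 3.3 kb upstream, chr1:155123983-155125169, was also lower in 1205Lu, with 130, 249 and 196 counts against 15 in A375 and 1, 11 and 6 against 8 in 1205Lu. Its share was 1.05 times IgG (count plus 1) in A375, close to IgG, and 0.25 times in 1205Lu. The peak at the start itself, chr1:155127184-155127626, was weak in both lines, at 11, 5 and 11 counts in A375 against 7 and 6, 17 and 6 in 1205Lu against 5, and after scaling it was higher in 1205Lu by 2.74 (SE 0.499, adjusted p = 1.3e-05). A peak on the last exon, chr1:155134683-155136293, nearer to SLC50A1, held 136, 294 and 211 counts in A375 against 19 and 27, 25 and 32 in 1205Lu against 21. EFNA1 RNA was higher in A375, and its change on silencing there did not pass the test (adjusted p = 0.89, edgeR).

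EFNA5 had 21 peaks, 14 of them intronic, and of 16 tested 9 had more signal in A375 and 2 more in 1205Lu. The latter pair passed the enrichment rule on unscaled counts in both lines. The peak chr5:107469223-107470444 held 140, 301 and 205 counts in A375 against 8 with IgG and 53, 93 and 59 in 1205Lu against 7, a scaled difference of 1.04 (SE 0.169, adjusted p = 2.0e-06). The peak chr5:107474535-107475110 holds the EFNA5 AP-1 sequence printed above. It had 21, 37 and 25 counts in A375 against 4 and 22, 39 and 32 in 1205Lu against 1. Its scaled difference was 2.84 (SE 0.244, adjusted p = 2.2e-12, edgeR). As a share of counts in peaks, its mean FRA1 signal was 0.49 times IgG (count plus 1) in A375. By share, this peak had no excess over IgG in A375, whereas 1205Lu lay above IgG. The share at chr5:107469223-107470444 was 2.08 times IgG in A375 and 3.54 times in 1205Lu. A peak within 3 kb of an internal start, chr5:107387993-107389819, held 332, 610 and 487 counts in A375 against 37 and 38, 73 and 51 in 1205Lu against 10, and its difference of -0.45 (adjusted p = 0.024) lost the call with 1205Lu replicates 2 and 3 taken as 1 sample (-0.46, adjusted p = 0.072), without 1205Lu replicate 1 (-0.15, adjusted p = 0.40) and without 1205Lu replicate 3 (-0.42, adjusted p = 0.11). The peak by the main start, chr5:107672015-107672996, held 50, 71 and 50 counts against 13 in A375 and 12, 7 and 6 against 5 in 1205Lu.

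EFNB2 had a single peak, chr13:106471997-106472834, which lies 16911 bp past the end of the gene. It held 89, 130 and 98 unscaled counts in A375 against 13 with IgG and 4, 6 and 2 in 1205Lu against 2, and it was lower in 1205Lu by 2.03 (SE 0.354, adjusted p = 6.6e-06, edgeR). As a share of counts in peaks, its mean FRA1 signal was 0.68 times IgG (count plus 1) in A375 and 0.56 times in 1205Lu. By share, neither line had an excess over IgG at this peak.

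**Figure D5:**
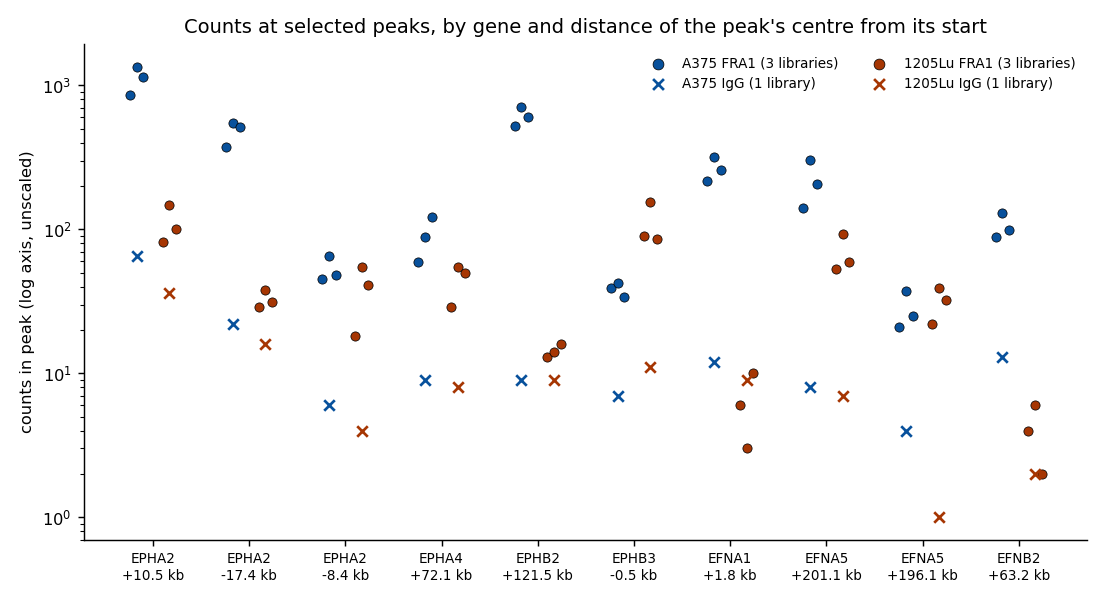
Unscaled counts at 10 selected peaks near EPHA2, EPHA4, EPHB2, EPHB3, EFNA1, EFNA5 and EFNB2, on a log axis, by gene and distance of the peak's centre from the start; circles are the 3 FRA1 libraries of a line and crosses its 1 IgG library. The EPHB2 intronic peak holds 517 to 710 counts in A375 and 13 to 16 in 1205Lu, and of the 10 peaks drawn only the EPHB3 promoter peak has every 1205Lu library above every A375 library.

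Of the 65 peaks, 14 had TGACTCA or TGAGTCA, searched on both strands, within 100 bp of the centre (21.5%, 95% Wilson interval 13.3 to 33.0%), beside 28.6% of all consensus peaks. Anywhere in the peak the share was 55.4%, beside 57.7% of all peaks. Among the peaks near the 8 genes with more signal in A375, 8 of 21 had the sequence near the centre and 17 of 21 anywhere, and among those with more in 1205Lu 1 of 14 and 5 of 14. The shares near the centre were 38.1% (95% Wilson interval 20.8 to 59.1%) and 7.14% (1.27 to 31.5%). Among all peaks with the same calls they were 31.6% and 25.1%, which both intervals held. The shares anywhere in the peak were 81.0% (60.0 to 92.3%) and 35.7% (16.3 to 61.2%), beside 57.7% of all peaks. The first of these intervals lay above 57.7% and the second held it. For this wider search no share of all peaks with the same calls is given, and the part of peak width was not tested. No AP-1 7-mer lay in the RefSeq promoter windows (250 bases before to 50 after the start, GRCh38) of the 8 genes or of 12 other family genes with a window, while 1344 of 27305 windows (4.92%) held one.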

How the data were processed

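The authors trimmed RNA-seq reads with cutadapt 1.8.1, aligned them to GRCh38 with STAR 2.7.7a and deposited RSEM 1.3.0 expected counts per gene, which were whole numbers. For Cut&Run, the authors aligned reads with Bowtie2 2.4.1, called peaks with MACS2 and deposited raw read counts in consensus peaks. Whether counting used strand is not given in the sources used here.

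Counts were tested with edgeR 4.0.16 (R 4.3.3, quasi-likelihood test, TMM, filterByExpr, Benjamini-Hochberg over all features, threshold 0.05), each line fitted alone on silencing, and all 12 samples together for the interaction and the lines. Peaks within 50 kb of a gene and promoter peaks within 3 kb of a start used GENCODE coordinates. Wilson intervals of shares cover counting error only; intervals of log2 changes come from the edgeR fits and include the spread between samples. Tests were checked on simulated data. Alternatives were DESeq2 1.42.0, other scaling, filters, windows, IgG limits, a replicate block and each sample left out.

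Members, lists and tests were chosen with earlier results of these data known. Named were FOSL1, all 22 family genes, the 4 partners with the largest called change per direction and line, the 2 most similar genes (the first is given), overlapping genes on the opposite strand, every promoter peak and 2 further peaks per member.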

Additional observations from a re-analysis of the deposited data

Results flagged for a closer look

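The response to FRA1 silencing differed between the lines for 8 family genes by the interaction term (edgeR's quasi-likelihood test, 1205Lu response minus A375 response, log2 scale). Among the 8 genes of the report these were EPHA2 at 0.72 (adjusted p = 2.2e-12), EPHA4 at -0.51 (6e-04), EPHB2 at 0.53 (5.7e-05), EPHB4 at 0.34 (0.00019), EFNA1 at 0.75 (0.00079) and EFNB2 at 0.92 (3.9e-09). Of the other family genes, EPHB1 differed by 1.04 (0.00044), with a fall of 1.08 in A375 and a change of -0.07 in 1205Lu that missed the threshold. EFNB1 differed by 0.78 (0.00012), with -0.18 in A375, which missed the threshold, and a rise of 0.59 in 1205Lu.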

How the results depend on the processing

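Called changes of the 8 genes kept their direction in all alternatives run; of the values that missed the threshold, EPHB3 (-0.02 without si-FRA1 replicate 2) and EFNA1 (-0.02 without si-NT replicate 1) in A375 changed sign, as did the EPHB3 response difference (-0.13 to 0.24 with each sample left out, -0.02 with upper-quartile scaling). With a log2 fold limit of 1, 0 members, 0 partners and 2 other family genes were called in A375, 0 of each list in 1205Lu, and 0 members by the interaction. Other family genes in A375, 5 as reported, were 3 with no low-count filter and 3 with all 12 samples in one fit. Leaving out each sample in turn gave 4 to 5 members, 2 to 4 other family genes and 26 to 29 partners in A375, 6 to 7, 1 to 2 and 29 to 32 in 1205Lu, 6 members by the interaction and 8 between the lines; peaks enriched were 39 to 46 in A375 and 3 to 8 in 1205Lu (8 without 1205Lu replicate 1), and 29 to 36 differed between the lines. A limit of 8 times IgG left 18 enriched peaks in A375 and 1 in 1205Lu, 2 times IgG gave 10 in 1205Lu, and equal totals gave 1 and 1. The AP-1 share was 55.4% anywhere in the peak. On unscaled counts these peaks turned to more signal in A375: EPHA4 at 72.1 kb (-1.01) and 1.84 kb (-1.74), EPHB2 at 1.95 kb (-2.14), EPHB4 at -39.88 kb (-0.93) and 33.1 kb (-2.41), and EFNA5 at 201.1 kb (-1.65); equal library sizes replace the TMM scaling there. Deviations of same-numbered RNA samples correlated at 0.05, 0.02 and 0.04 in A375, where differently numbered pairs ran from -0.05 to 0.01. In 1205Lu same-numbered samples gave -0.03, -0.003 and -0.02. With 3 samples per group, such small values cannot tell whether the numbers pair the samples. With a replicate block 5 members changed in A375, 7 in 1205Lu, 6 by the interaction and 8 between lines, and 32 peaks differed. Mean CPM by library total alone was added after the data were seen. Low 1205Lu Cut&Run counts limit what can be shown there.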
